A study of Homo sapiens with 20 samples.

Results

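The 10 genes described here belong to the TGF-beta and BMP signaling pathways: the ligand genes TGFB2, INHBA, BMP2, BMP4 and BMP6, the receptor genes TGFBR1 and TGFBR2, and the intracellular genes SMAD3, SMAD6 and SMAD7. Their chromatin contacts were taken from Hi-C of 4 lines. H4 and 42MGBA are established human GBM (glioblastoma) cell lines with an endogenous STAG2 mutation, labelled STAG2-mutant. The lines H4 88-1, from H4, and 42MGBA 53-1, from 42MGBA, carry the label STAG2-WT. Each is a single gene-edited derivative with that mutation corrected. All 4 were grown in the same serum-containing medium, without treatment. Each line and its derivative are called a system below. An anchor pair was a member when an anchor of about 5 kb lay within 3 kb of an annotated transcript start of a member gene, which gave 1481 of the 572000 distinct anchor pairs in the lists. The value of a pair is its loop strength, a normalized signal, and a pair has a value only in a line in which it is among the 300000 strongest. Members numbered 834 pairs in H4 and 743 in H4 88-1, and 618 in 42MGBA against 726 in 42MGBA 53-1. The 2 replicates of a line were pooled by the authors into 1 list, so the values below have no replicate error and no test, and a difference between lines is a difference between lists. Contact lists hold no expression, so neither the STAG2 genotype nor the cell type was checked against marker genes.

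TGF-beta, activin and BMP ligands are secreted dimers that bring together type I and type II receptor kinases at the cell surface. The type I receptor phosphorylates receptor SMADs, which enter the nucleus and act on target genes, and the inhibitory SMADs, themselves induced by the pathway, limit this signal. In glioma, TGF-beta signaling is known for its links to invasion, immune suppression and a mesenchymal state. STAG2 is a subunit of cohesin, the ring complex that extrudes chromatin loops, and many of these loops end at sites bound by the protein CTCF.

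The members differed widely in how many contacts they had. INHBA, which encodes the activin A subunit, had 645 pairs, more than 99.96% of the 10019 protein-coding genes with at least 1 listed pair. TGFB2, a TGF-beta ligand gene, had 355 pairs, more than 99.5% of genes. SMAD3 had 178 pairs, TGFBR2 94, TGFBR1 84, BMP6 36, SMAD7 33, BMP4 22, and BMP2 and SMAD6 17 each. Because neighbouring pairs share signal, pairs of a gene whose anchors lay within 10 kb of each other were joined, which left 67 groups. Joining ran in chains from pair to pair, so a group can be far wider than 10 kb and need not be a single contact. Of the 1481 pairs, 174 (11.7%) were listed in all 4 lines and 635 (42.9%) in a single line, where 19.3% and 41.2% of all pairs were.

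The sequences before the canonical starts are shown for the members with the most pairs, TGFB2, INHBA and SMAD3, since a start-site anchor is what defined a member. Each is the 150 bases just before the Ensembl canonical transcript start, read 5′ to 3′ on the gene's strand from the reference genome GRCh37 (hg19), with the TATA box letters TATAAA in capitals.
TGFB2, chr1:218518528-218518677, plus strand: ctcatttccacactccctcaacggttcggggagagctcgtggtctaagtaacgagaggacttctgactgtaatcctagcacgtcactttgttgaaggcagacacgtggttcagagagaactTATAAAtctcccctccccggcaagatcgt
INHBA, chr7:41742689-41742838, minus strand: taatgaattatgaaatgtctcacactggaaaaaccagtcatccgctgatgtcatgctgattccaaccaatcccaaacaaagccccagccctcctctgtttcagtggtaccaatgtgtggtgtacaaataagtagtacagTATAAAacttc
SMAD3, chr15:67357790-67357939, plus strand: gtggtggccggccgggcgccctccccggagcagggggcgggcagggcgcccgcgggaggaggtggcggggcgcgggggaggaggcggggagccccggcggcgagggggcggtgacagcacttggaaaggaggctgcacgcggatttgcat
TATAAA was found before TGFB2, 29 bases upstream of the start counted from its first base, and before INHBA, 11 bases upstream, and not before SMAD3 on either strand. Of 19856 promoters of the same length, 5.34% held it on the gene's strand and 1.86% on the other. The INHBA window held 1 CpG and was 41.3% G or C, the TGFB2 window held 8 CpG and the SMAD3 window 18, against a median of 12 CpG over all promoters. These are matches of letters and no account of what binds there.

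Loop strengths of the members are drawn by gene and line in the plot of listed anchor pairs. The highest values were at INHBA in both H4 lines, at BMP6 in 42MGBA and at TGFBR1 in 42MGBA 53-1.

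**Figure D1:**
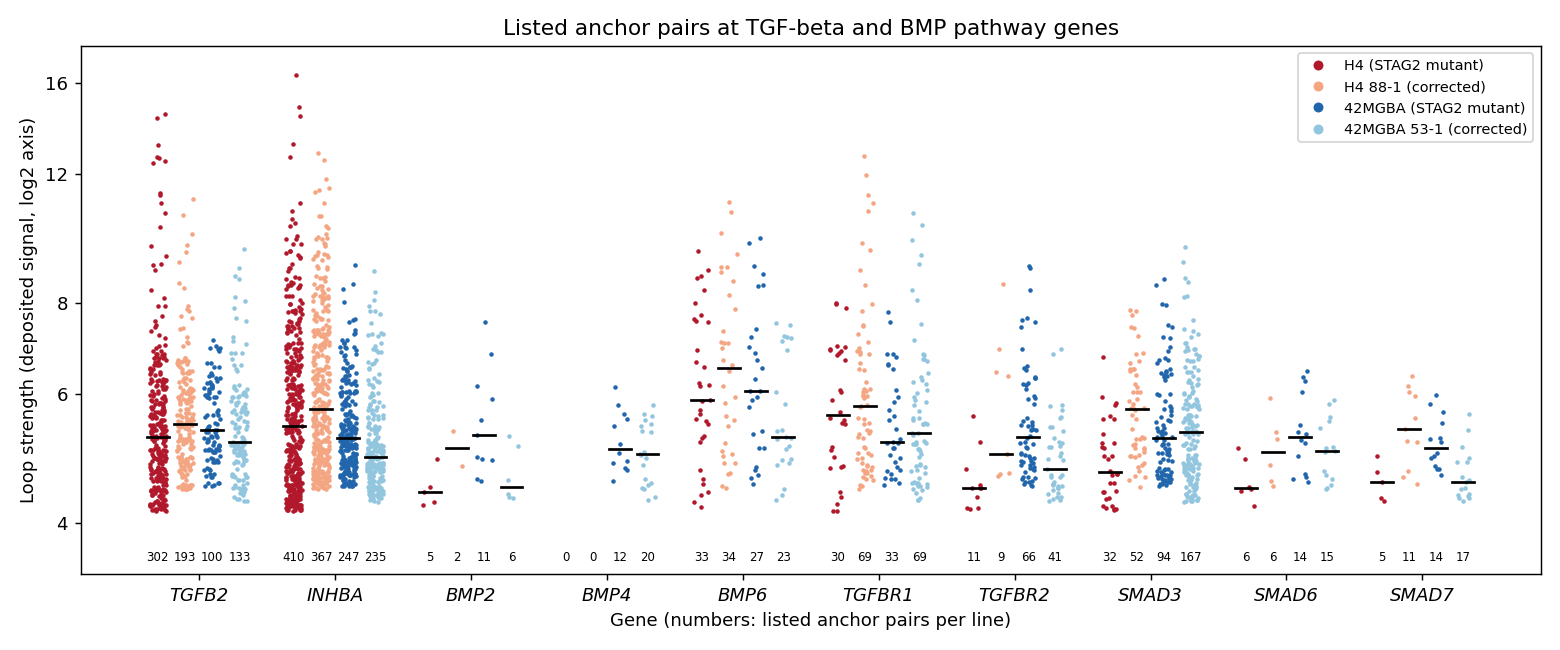
Loop strength (deposited signal, log2 axis) of every listed anchor pair at the 10 genes, 1 point per pair, colored by line, with the median as a black bar and the number of listed pairs under each column. INHBA and TGFB2 hold most pairs, BMP4 has none in H4 and H4 88-1, and the strongest pair is at INHBA in H4, at 16.4.

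Over all 10 genes, strengths differed little between the STAG2-mutant and STAG2-corrected lines. In the H4 system the median log2 ratio of corrected over mutant strength was 0.05 over the 563 member pairs listed in both lines, against 0.09 over all 213275 such pairs. Over the 391 member pairs of the 42MGBA system it was -0.0051, against -0.09 over all 204138. INHBA and TGFB2 gave most of these pairs. Without them the H4 median was 0.23 over 102 pairs, of which 87 were stronger in H4 88-1, and the 42MGBA median was 0.02 over 175 pairs, of which 91 were stronger in 42MGBA 53-1. Over all pairs 64.1% were stronger in H4 88-1 and 35.5% in 42MGBA 53-1.

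Pairs standing far from the trend were found with a z-score from a regression through the origin of corrected on mutant strength. The fit took the 100000 strongest pairs of either line, and each residual, less the mean residual, was divided by the SD. A z-score beyond 1.96 in either direction, a two-sided 0.05 cutoff, was used here to rank pairs and not as a test. In the H4 system, 5 of 356 member pairs passed as stronger in H4 88-1, or 1.40%, against 1.94% of all pairs, and they lay at TGFBR1 (4) and SMAD3 (1). Another 15, or 4.21%, passed as weaker, against 2.17% of all pairs, and lay at TGFB2 (12) and INHBA (3). With an intercept in the regression, 2 pairs passed as weaker, both at TGFB2. In the 42MGBA system 8 of 229 member pairs, or 3.49%, passed as stronger in 42MGBA 53-1, against 1.61% of all pairs, at INHBA (5), TGFBR1 (2) and TGFB2 (1). The only pair that passed as weaker there was at INHBA, 0.437% of the members, against 2.45% of all pairs. The 15 weaker pairs in H4 made 2 groups and the 8 stronger pairs in 42MGBA made 3, so these counts are of few independent contacts.

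By a fold of 1.5 between lines that both listed the pair, 11 of 563 member pairs (1.95%) were stronger in H4 88-1 and 1 was weaker, where 3.12% and 0.835% of all pairs were. In 42MGBA 53-1, 1 of 391 was stronger and 9 (2.30%) were weaker, where 0.528% and 3.68% of all pairs were. More often a pair was simply absent from one list. Of 1014 member pairs in the H4 system, 271 (26.7%) were listed in H4 only and 180 (17.8%) in H4 88-1 only, where each share was 22.4% over all pairs. Of 953 in the 42MGBA system, 227 (23.8%) were listed in 42MGBA only and 335 (35.2%) in 42MGBA 53-1 only, where each share was 24.2% over all pairs.

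**Figure D2:**
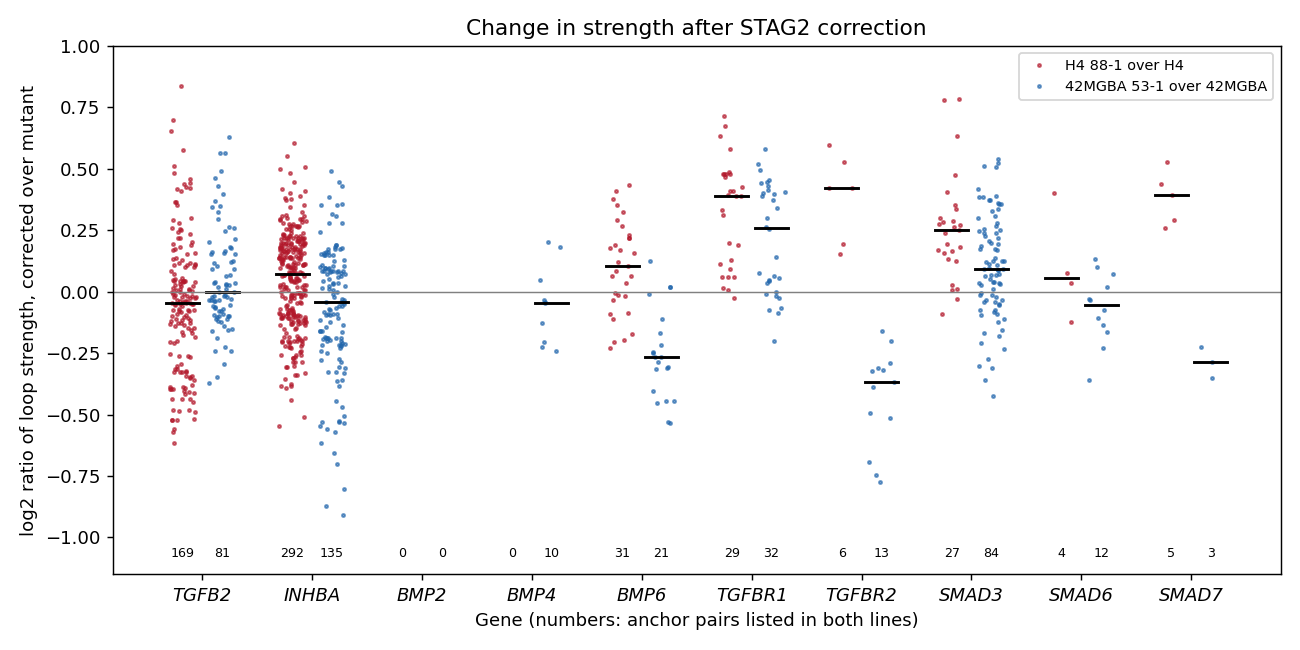
log2 ratio of loop strength, corrected over mutant line, for each anchor pair listed in both lines of a system, with the median as a black bar where at least 3 pairs allow one and the number of pairs below. The medians of TGFBR1 (0.39 and 0.26) and SMAD3 (0.25 and 0.09) lie above 0 in both systems. Those of TGFBR2, SMAD7, INHBA, BMP6 and SMAD6 lie above 0 in the H4 system and below it in the 42MGBA system, as do the medians of all pairs, 0.09 and -0.09. Less the medians of all pairs, TGFBR2, SMAD7 and BMP6 keep these signs. INHBA (-0.014 and 0.042) and SMAD6 (-0.032 and 0.030) then have the opposite ones.

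Among the ligands, TGFB2 (chr1:218518678-218617961, plus strand) had all of its pairs downstream of its start. It was listed with 302 pairs in H4 and 193 in H4 88-1, and 100 in 42MGBA against 133 in 42MGBA 53-1, and the median distance between anchors was 674 kb in H4 and, in the same order, 369 kb, 194 kb and 209 kb in the other lines. Its strongest pair joined chr1:218510706-218515714 with chr1:219239635-219244404, 729 kb away, where no protein-coding gene lies. This pair measured 14.5 in H4 and 11.1 in H4 88-1, and 6.95 in 42MGBA against 7.88 in 42MGBA 53-1. It was thus highest in H4, and in each H4 line above both 42MGBA lines. The anchor beside TGFB2 overlaps an exon of the neighbouring gene RRP15 and ends before the start itself. Among the 133 TGFB2 pairs whose anchor held the start, the strongest in each line reached 12.6, 9.61, 7.13 and 9.49 in the same order.

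The group around this contact held 144 pairs at 571 to 887 kb, some of which ended at the start of LYPLAL1, a lysophospholipase-like gene. It was listed with 139 pairs in H4 and 78 in H4 88-1. Of the 73 pairs listed in both, 27 were stronger in H4 88-1, with a median log2 ratio of -0.16, and all 12 TGFB2 pairs that passed as weaker belonged to it. The furthest of these on the z-score scale, at -2.77, measured 12.7 in H4 against 8.52 in H4 88-1, and 5.71 in 42MGBA against 5.99 in 42MGBA 53-1. The same group had 31 and 16 pairs in the 42MGBA lines, with a median log2 ratio of 0.03. At distances of 1000 kb and more, TGFB2 had 51 pairs in H4, 11 in H4 88-1 and none in either 42MGBA line. Its short contacts, a group of 93 pairs at a median of 174 kb, were listed in every line with medians close to 0, -0.01 in the H4 system over 64 pairs and 0.02 in the 42MGBA system over 56.

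INHBA (chr7:41706766-41745432, minus strand) likewise had all pairs downstream of its start, at 106 to 1514 kb. Its listed pairs numbered 410 in H4 and 367 in H4 88-1, and 247 in 42MGBA against 235 in 42MGBA 53-1. The strongest pair joined chr7:41744914-41749803, which holds an INHBA exon, with an intron of SUGCT at chr7:40367801-40372692, 1377 kb away. This pair measured 16.4 in H4 and 12.8 in H4 88-1, and 9.03 in 42MGBA against 5.56 in 42MGBA 53-1. In both systems it was weaker in the corrected line, with log2 ratios of -0.36 and -0.70. The group of 128 pairs around it, at a median of 1402 kb, had 126, 88, 45 and 14 listed pairs in the 4 lines in the order above. Of its pairs listed in both lines, 15 of 86 in the H4 system and none of 14 in the 42MGBA system were stronger in the corrected line, with medians of -0.13 and -0.54.

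Closer to the gene, more pairs were stronger in H4 88-1 than in H4. A group of 147 pairs at a median of 891 kb was listed with 132 pairs in H4 and 122 in H4 88-1, and 58 in 42MGBA against 4 in 42MGBA 53-1, and 73 of 107 were stronger in H4 88-1, with a median log2 ratio of 0.11. The group at a median of 574 kb, with pairs from 354 to 737 kb, was the largest, with 274 pairs, and was listed with 104, 142, 135 and 178 pairs. In it 81 of 90 pairs were stronger in H4 88-1, while 53 of 112 were stronger in 42MGBA 53-1. It also held the 5 pairs that passed as stronger in 42MGBA 53-1. The foremost of these joined chr7:41739898-41744913 with chr7:41284057-41288859, 456 kb away, and was listed in 42MGBA 53-1 alone, at 8.85, against a lowest listed strength of 4.49 in 42MGBA. None of the 5 was listed in 42MGBA, so with absent pairs left out INHBA had no pair passing in this direction. A group of 21 pairs at 207 kb was listed in neither H4 line, with 4 pairs in 42MGBA and 21 in 42MGBA 53-1.

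**Figure D3:**
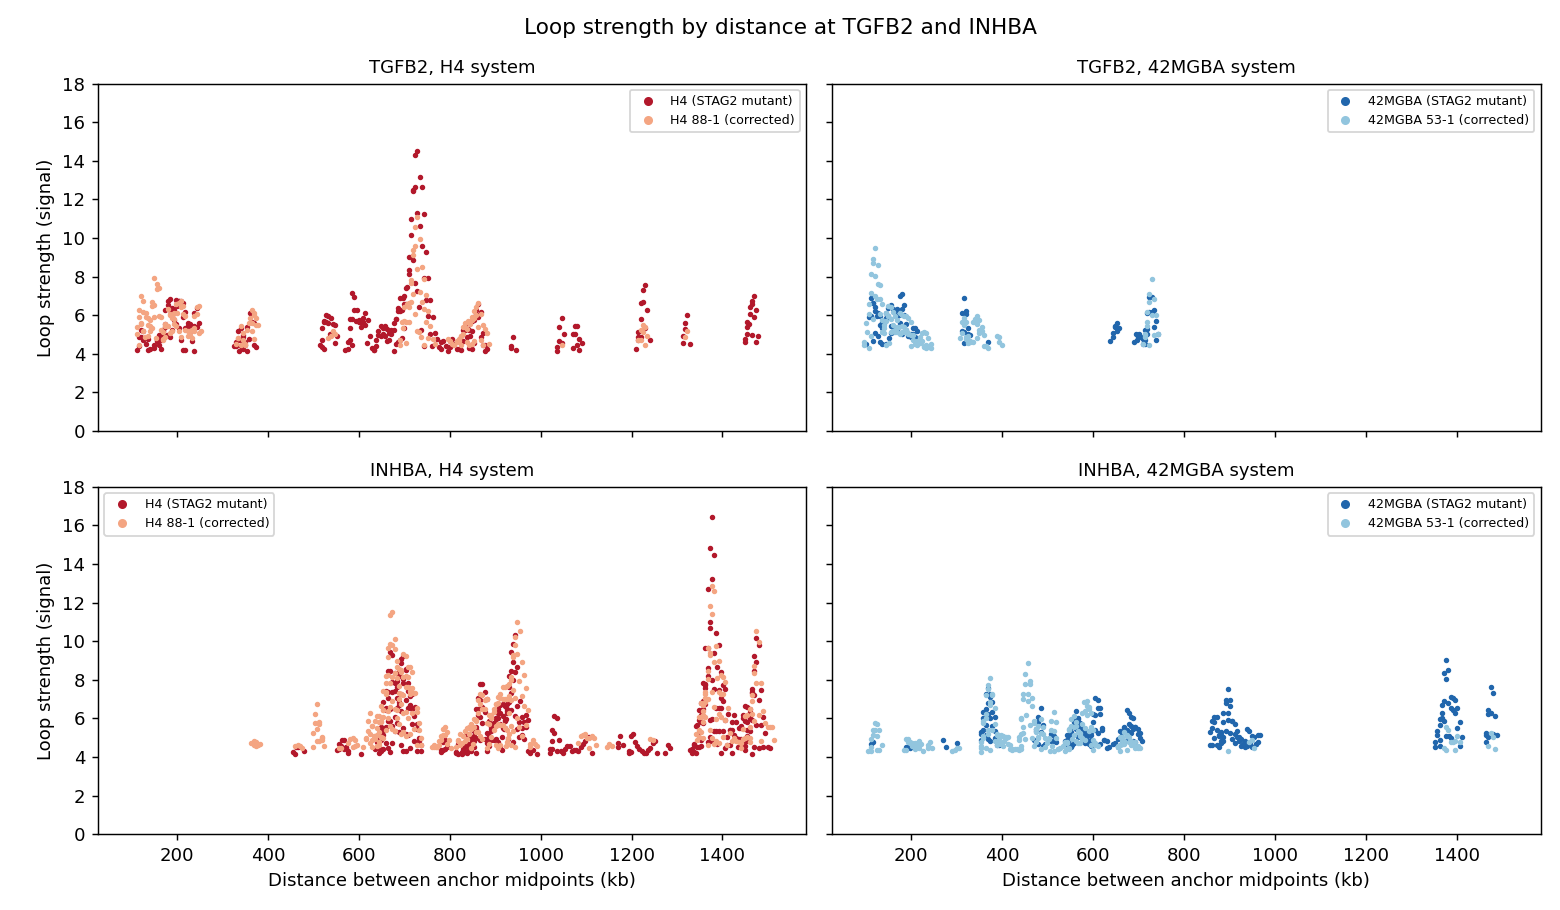
Loop strength (signal) against the distance between anchor midpoints (kb) at TGFB2 and INHBA, 1 point per listed anchor pair, with the H4 system on the left and the 42MGBA system on the right. The tallest peaks are in H4 near 729 kb at TGFB2 (14.5) and near 1377 kb at INHBA (16.4), and beyond 1000 kb TGFB2 has points in the H4 system alone.

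INHBA also held the only member pairs whose anchors carried CTCF-type motifs facing each other. The motif searched on both strands was CCANNAGAGGGC, CCANNAGATGGC, CCANNAGGGGGC and CCANNAGGTGGC, a core of the known CTCF motif. It was found in 28 of 585 member anchors (4.79%), against 7.91% of all 128561 anchors in the lists. Facing motifs, plus in the left anchor and minus in the right, were in 3 member pairs (0.203%), against 0.558% of all pairs. The 3 shared the anchor at chr7:41735127-41739897 within reach of the INHBA starts. The 4 matches are shown with 15 bases on each side, on the strand of the motif and with the motif in capitals.
far anchor at 1465 kb, chr7:40272305-40272346, plus strand: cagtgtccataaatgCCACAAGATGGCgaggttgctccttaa
anchor at INHBA, chr7:41736198-41736239, minus strand: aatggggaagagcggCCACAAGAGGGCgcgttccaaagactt
far anchor at 693 kb, chr7:41042813-41042854, plus strand: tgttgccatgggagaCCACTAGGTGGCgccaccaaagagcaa
far anchor at 465 kb, chr7:41270815-41270856, plus strand: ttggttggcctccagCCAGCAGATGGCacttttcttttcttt
The pair at 1465 kb had strengths of 7.38 in H4, 6.22 in H4 88-1 and 5.13 in 42MGBA. The pair at 693 kb had 9.05, 8.50 and 4.78 in the same lines, and neither was listed in 42MGBA 53-1. The pair at 465 kb was listed only in the corrected lines, at 4.63 in H4 88-1 and 4.98 in 42MGBA 53-1. Of the 29 anchors of the named pairs, 1 held the motif.

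BMP6 (chr6:7726332-7881961, plus strand), a BMP ligand gene known for its part in iron balance, had a single group of 36 pairs at a median of 282 kb downstream. It was listed with 33, 34, 27 and 23 pairs in H4 and H4 88-1 and then in 42MGBA and 42MGBA 53-1. The strongest pair joined the start anchor chr6:7722762-7727761 with chr6:7988472-7993389 in an intron of BLOC1S5-TXNDC5. This pair measured 9.44 in H4 and 11.0 in H4 88-1, and 9.81 in 42MGBA against 7.21 in 42MGBA 53-1. It was highest in H4 88-1 and lowest in 42MGBA 53-1, and the 2 mutant lines lay close together between them. Over the group, 20 of 31 pairs were stronger in H4 88-1, with a median log2 ratio of 0.10 (-0.0056 less the median of pairs of like size), and 3 of 21 in 42MGBA 53-1, with a median of -0.27. The chromosome 6 median in the 42MGBA system was itself -0.21, and less it the BMP6 median was -0.061.

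BMP2 and BMP4, ligand genes with wide roles in patterning and bone formation, had fewer pairs than most other members, though 51.2% and 58.6% of genes with a listed pair had fewer still. BMP4 (chr14:54416454-54425479, minus strand) was listed in neither H4 line, and with 12 pairs in 42MGBA and 20 in 42MGBA 53-1. Its strongest pair, 386 kb across, had strengths of 6.14 and 5.32 in these lines. Over 10 pairs listed in both, 3 were stronger in 42MGBA 53-1 and the median log2 ratio was -0.045, or 0.069 less the median of pairs of like size. BMP2 (chr20:6748333-6760893, plus strand) had 5, 2, 11 and 6 pairs in the 4 lines, and no pair was listed in both lines of a system. Its strongest pair, 520 kb downstream, was listed in the mutant lines only, at 4.89 in H4 and 7.53 in 42MGBA.

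The receptor gene TGFBR1 (chr9:101866320-101916474, plus strand) encodes the type I receptor kinase of TGF-beta. It had more listed contacts in the corrected line of both systems. Of its pairs listed in both lines, 28 of 29 and 24 of 32 were stronger there, by an amount that differed between its starts. It was listed with 30 pairs in H4 and 69 in H4 88-1, and with 33 in 42MGBA and 69 in 42MGBA 53-1. All 84 of its pairs were upstream. Its strongest pair joined chr9:101904871-101909869, which holds a TGFBR1 exon, with chr9:101616222-101621060, 289 kb upstream and in no protein-coding gene. The strength was 7.98 in H4 and 12.7 in H4 88-1, and 7.77 in 42MGBA against 10.2 in 42MGBA 53-1. Both corrected lines lay above both mutant lines, by 0.67 and 0.40 on the log2 scale within the systems. In its group of 23 pairs, which also reached the start of GALNT12, a gene for a glycosyltransferase of mucin-type O-glycosylation, 17 of 17 pairs were stronger in H4 88-1 and 11 of 11 in 42MGBA 53-1. The medians were 0.48 and 0.41, and the 4 and 2 TGFBR1 pairs that passed as stronger were all in this group.

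These TGFBR1 contacts lay at the start of a retained-intron transcript toward the 3′ end of the gene and not at the canonical start. Over all pairs at that start the H4 system had a median log2 ratio of 0.48, and the 42MGBA system 0.41. At the internal protein-coding starts, with 23 pairs, the medians were 0.077 and -0.0022, where the H4 median of chromosome 9 was 0.099. In the main group there, at 271 kb, 11 of 12 pairs were stronger in H4 88-1 but only 3 of 7 in 42MGBA 53-1. At the canonical start there were 15 pairs, listed in neither mutant line, with 4 in H4 88-1 and 13 in 42MGBA 53-1. The strongest of them, 106 kb upstream to an anchor with an exon of the collagen gene COL15A1, had strengths of 4.68 in H4 88-1 and 6.81 in 42MGBA 53-1. Over all starts, 21 member pairs (1.42%) were listed in both corrected lines and neither mutant line, a share near the 1.33% of all pairs, and 18 of these were at TGFBR1, at 101 to 270 kb, with the other 3 at INHBA. The opposite pattern, both mutant lines only, also had 21 pairs, against 1.57% of all pairs, 8 at TGFB2, 5 at INHBA, 4 at TGFBR2, 3 at BMP2 and 1 at SMAD3.

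TGFBR2 (chr3:30648093-30735634, plus strand) encodes the type II receptor that binds TGF-beta and activates TGFBR1. It had 11 pairs in H4 and 9 in H4 88-1, and 66 in 42MGBA against 41 in 42MGBA 53-1. The strongest pair joined an internal anchor with an exon, chr3:30725662-30730541, with chr3:30153256-30158167, 572 kb upstream and in no protein-coding gene. This pair measured 5.61 in H4 and 8.49 in H4 88-1, and 8.93 in 42MGBA against 6.92 in 42MGBA 53-1. H4 was thus the lowest and 42MGBA the highest, with opposite order within the 2 systems. In the group of 34 pairs around it, 6 of 6 were stronger in H4 88-1, with a median log2 ratio of 0.42, and 0 of 13 in 42MGBA 53-1, with a median of -0.37. A second group at 475 kb was listed with 25 pairs in 42MGBA, 2 in H4 and none in either corrected line. The canonical start of TGFBR2 had 8 pairs, all listed in 42MGBA 53-1 alone, of which the strongest had a strength of 5.42.

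**Figure D4:**
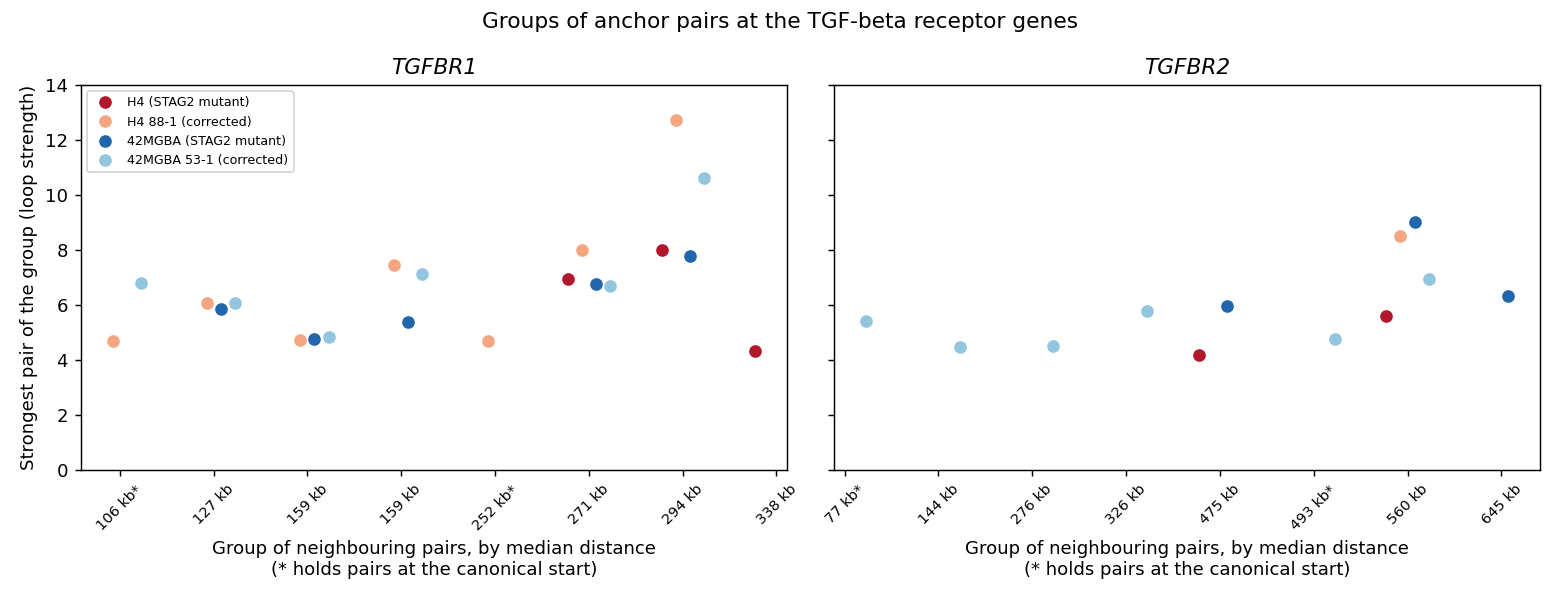
Strength of the strongest pair of each group of neighbouring anchor pairs at TGFBR1 (left) and TGFBR2 (right), ordered by the median distance between anchors (kb), 1 point per line in which the group was listed. At TGFBR1 the group at 294 kb is strongest, and both corrected lines lie above both mutant lines, while at TGFBR2 the group at 560 kb is highest in 42MGBA and H4 88-1.

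SMAD3 (chr15:67356101-67487511, plus strand) encodes a receptor SMAD of the TGF-beta and activin branch. It was listed with 32, 52, 94 and 167 pairs in H4 and H4 88-1 and then in 42MGBA and 42MGBA 53-1, at a median distance of 108 kb over all of them. The strongest pair joined chr15:67391226-67396124, which holds a SMAD3 exon, with chr15:67240327-67245033, 151 kb upstream. This pair measured 5.55 in H4 and 7.71 in H4 88-1, and 8.47 in 42MGBA against 9.55 in 42MGBA 53-1, higher in the corrected line of each system. At the canonical start the strongest pair, 116 kb across, reached the same upstream anchor, with strengths of 4.53, 7.80, 7.47 and 8.15. Over all SMAD3 pairs 25 of 27 were stronger in H4 88-1, with a median log2 ratio of 0.25, and 57 of 84 in 42MGBA 53-1, with a median of 0.09. The first median was 0.15 less the chromosome median and 0.11 less that of pairs of like size, and the second was 0.31 at the canonical start. A group of 43 pairs at 89 kb was listed in neither H4 line, with 8 pairs in 42MGBA and all 43 in 42MGBA 53-1. Of all SMAD3 pairs, 32 joined 2 starts of SMAD3 itself.

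SMAD6 and SMAD7 encode the inhibitory SMADs, SMAD6 acting mainly on BMP signals and SMAD7 on both branches. SMAD6 (chr15:66994574-67075187, plus strand) had 1 group of 17 pairs at 144 kb. Its strongest pair had strengths of 5.06 in H4 and 5.33 in H4 88-1, and 6.46 in 42MGBA against 5.89 in 42MGBA 53-1. The medians were 0.06 over 4 pairs and -0.056 over 12, so that the lines of a system lay close together, and less the chromosome median the H4 value was -0.049. SMAD7 (chr18:46446223-46477335, minus strand) had 5, 11, 14 and 17 pairs in the 4 lines and none listed in all. The strongest joined chr18:46472072-46477021 with an intron of DYM 228 kb upstream, with strengths of 4.69 in H4, 6.35 in H4 88-1 and 5.81 in 42MGBA, and it was not listed in 42MGBA 53-1. All 5 SMAD7 pairs listed in both H4 lines were stronger in H4 88-1, with a median log2 ratio of 0.39, and lay in a group at 233 kb. A pair below 4.44 in H4 could be listed in both lines only if it was stronger in H4 88-1, and SMAD7 strengths in H4 began at 4.28. All 3 pairs listed in both 42MGBA lines were weaker in 42MGBA 53-1, with a median of -0.29. They lay in a different group, at 101 kb, which was listed in neither H4 line.

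Whether a pair was listed in a single line of a system varied with its distance, at the members and over all pairs. Of the member pairs of 1000 kb and more, 50.6% in the H4 system were listed in the mutant line only and 4.26% in the corrected line only, where 49.0% and 7.49% of all such pairs were. In the 42MGBA system the shares were 70.8% and 0 of 48 pairs, where 45.1% and 10.9% of all pairs were. Below 250 kb, 5.64% of member pairs were listed in H4 only and 41.5% in H4 88-1 only, against 17.7% and 30.0% of all pairs. In the 42MGBA system 6.46% and 48.3% were, against 17.1% and 33.2%. Between 250 and 500 kb the members of the 42MGBA system went the other way from all pairs, with 14.4% listed in 42MGBA only and 47.9% in 42MGBA 53-1 only, against 25.4% and 19.2%. Nearly all of the long pairs were at INHBA and TGFB2, which held 225 of the 225 long pairs in H4. In 42MGBA, 45 of the 48 were at INHBA, in a single group of neighbouring pairs, and 3 were at BMP2. The shares of long pairs in the 42MGBA system thus rest on few independent contacts.

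**Figure D5:**
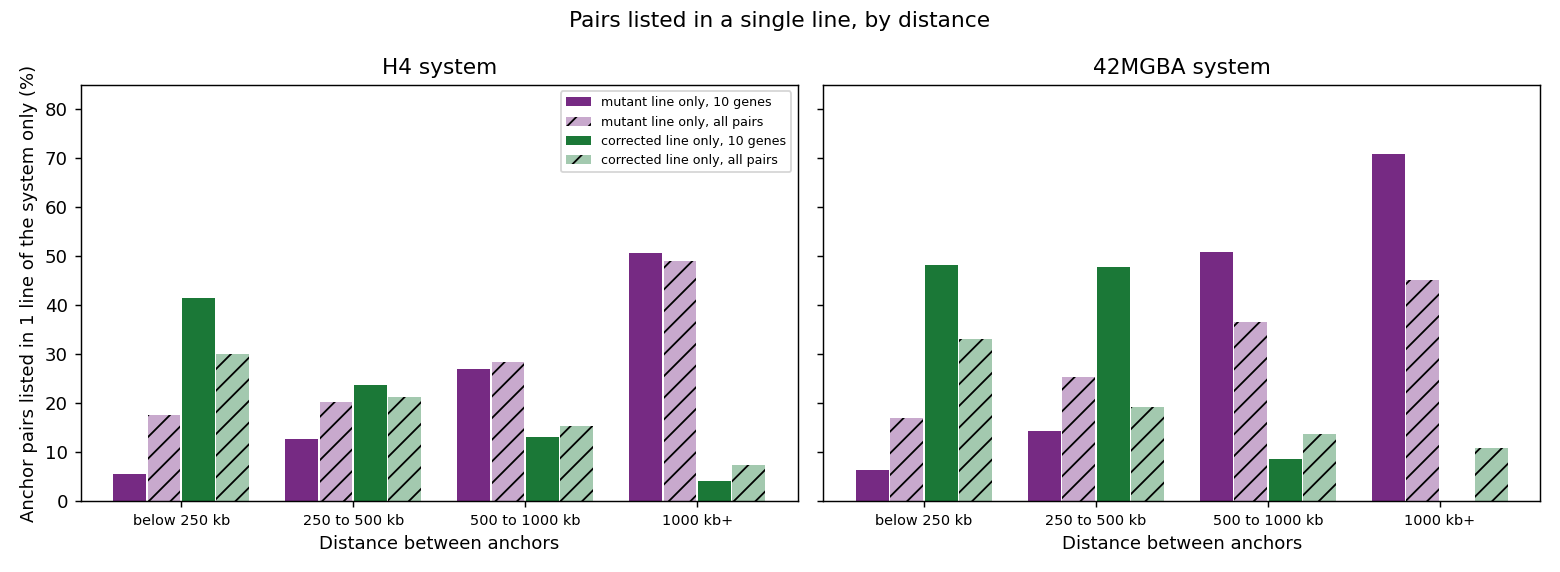
Share of anchor pairs (%) listed in only the mutant or only the corrected line of a system, by the distance between anchors, for the 10 genes (solid bars) and all pairs (hatched bars). Pairs of 1000 kb and more are more often listed in the mutant line only than in the corrected line only, at 50.6% and 70.8% for the 10 genes, and pairs below 250 kb more often in the corrected line only, at 41.5% and 48.3%.

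Between the systems, the lists were normalized separately, and a strength in H4 and one in 42MGBA are set side by side only as given. Within a system the lists also differed in scale. The median listed strength was 5.17 in H4 and 5.52 in H4 88-1, and 5.54 in 42MGBA against 5.20 in 42MGBA 53-1. Of 319 member pairs listed in both mutant lines, 14 (4.39%) were at least 1.5-fold stronger in 42MGBA and 50 (15.7%) in H4, where 10.4% and 4.94% of all pairs were. Of 317 listed in both corrected lines, 10 (3.15%) were stronger in 42MGBA 53-1 and 46 (14.5%) in H4 88-1, where 4.39% and 9.91% of all pairs were. Without INHBA and TGFB2, 13 of 97 pairs in the mutant lines were stronger in 42MGBA and 0 of 97 in H4, while in the corrected lines 1 of 146 was stronger in 42MGBA 53-1 and 4 of 146 in H4 88-1. Over all pairs the median log2 ratio of the 42MGBA line over the H4 line was 0.10 in the mutant lines, with 61.4% of pairs above 0. In the corrected lines it was -0.065, with 42.3% above 0, and the gene medians below are to be read beside these. At INHBA the median log2 ratio of 42MGBA over H4 was -0.37 in the mutant lines over 147 pairs and -0.61 in the corrected lines over 73. At TGFBR2 it was 0.64 in the mutant lines, with 11 of 11 pairs stronger in 42MGBA, and -0.11 in the corrected lines, with 4 of 9. At SMAD3 it was 0.29, with 28 of 30, and 0.11, with 38 of 52. At TGFBR1 it was -0.098, with 0 of 18, and -0.13, with 10 of 56. In all, 528 member pairs (35.7%) were listed only in the H4 system and 467 (31.5%) only in the 42MGBA system, where 30.8% and 32.4% of all pairs were.

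A wider list of 89 other genes of the pathway was read in the same way, and 66 had a listed pair. In the H4 system 42 had at least 3 pairs in both lines, and the median log2 ratio was above 0 at 31 and below 0 at 11, where it was at 3664 and 1350 of all genes. In the 42MGBA system it was above 0 at 11 of 36 genes and below at 25, where it was at 1475 and 3147 of all genes. The medians over these genes, 0.097 and -0.077, lay close to those over all genes, 0.11 and -0.083. The highest in the H4 system was INHBB, the activin B subunit gene, at 0.65, and the lowest was HJV, a BMP co-receptor gene, at -0.48. In the 42MGBA system the highest was TGFBI, a matrix protein gene induced by TGF-beta, at 0.26, and the lowest was TGFBR3, the betaglycan co-receptor gene, at -0.62. Of 39 list genes with a pair among the strongest in each system, a pair passed the z-score cutoff as stronger at 4 in H4 (10.3%) and 3 in 42MGBA (7.69%), where it did at 9.56% and 6.37% of all such genes. As weaker, a pair passed at 3 list genes in each system (7.69%), where it did at 5.86% and 7.14%.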

How the data were processed

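Hi-C libraries of 4 GBM lines were made with the Arima Hi-C+ kit, with 2 biological replicates per line. The authors trimmed reads to 36 bp, aligned them with Bowtie to hg19 and assigned them to pairs of 5 kb anchors. Biases were then removed with HiCorr, and DeepLoop enhanced the result. The deposited value is a signal called loop strength here, given for 300000 anchor pairs per line, the strongest ones, with replicates pooled. No counts are given, so depth per value is unknown and no interval can be computed. The deposited lists do not pair strengths with genes, which were added here from GENCODE release 44 on GRCh37. A restriction site of the kit (GATC or GANTC) lay at the start of 100.0% of the 128561 anchors and at the midpoint of 4.21%, which checks the build.

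A pair absent from a list was set to the lowest listed strength for the z-score. That was 4.14 in H4 and 4.44 in H4 88-1, and 4.49 in 42MGBA against 4.28 in 42MGBA 53-1. The same was done for the mean strength that picked the strongest pair of a gene, and for medians said to use it. All other log2 ratios used pairs listed in both lines. A pair in H4 below the lowest listed strength of H4 88-1 could then only have a ratio above 0. A pair in 42MGBA 53-1 below the lowest listed strength of 42MGBA could only have a ratio below 0. Distance is that between anchor midpoints. A gene median needed 3 pairs. A single pooled list per line allows no test, and z-scores rank pairs.

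All 10 members were named, with the pair of largest mean strength of each (also at its canonical start), the pairs of largest and smallest z-score in each system, the genes at far anchors, and the extremes of the pathway list. The genes that anchors overlap, the pairs with facing motifs and the pairs shared by lines of a genotype were chosen after their values were seen. The members and lists were chosen with earlier results of these data known. Restriction to the canonical start was added after the data were seen. The z-score procedure was tested on simulated data. The 12 RNA-seq samples were not analysed here. Scripts ran in Python 3.11.15 with pandas 2.3.3, numpy 2.4.6, matplotlib 3.10.9 and scipy 1.17.1.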

Additional observations from a re-analysis of the deposited data

Results flagged for a closer look

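At TGFBR2 every pair listed in both lines was stronger after STAG2 correction in the H4 system (median log2 ratio 0.42, 6 pairs) and weaker in the 42MGBA system (median -0.37, 13 pairs). The pairs are neighbours in 1 group, and the difference was not tested. They lie at internal starts of a retained-intron transcript and of a transcript without a defined coding sequence, and not at the canonical start. At SMAD7 every pair listed in both lines was stronger in the H4 system (0.39, 5 pairs) and weaker in the 42MGBA system (-0.29, 3 pairs), which was not tested either. These were different contacts, a group at 233 kb in the H4 system and a group at 101 kb, listed in neither H4 line, in the 42MGBA system. For the weakest pairs the lowest listed strengths alone fix a ratio above 0 in the H4 system and below 0 in the 42MGBA system. With absent pairs set to the lowest listed strength, the TGFBR2 medians were 0.17 and -0.18 and the SMAD7 medians 0.32 and -0.094.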

How the results depend on the processing

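No paired analysis was possible because each list pools the replicates of its line. Of the main counts and medians, 43 values under other settings stayed within 1.5 times the count or 0.1 of the median, and the following did not; the cause was not tested unless the setting itself adds or removes pairs. Member pairs passing as stronger in H4 88-1 (5) numbered 8 by the z-score of the log2 ratio, 26 with all listed pairs merged, 2 with the start inside the anchor, 0 at the 5′ end of the gene record, 0 at the canonical start and 2 as groups. Those passing as weaker (15) numbered 2 with an intercept, 4 by the log2 ratio, 43 with all pairs merged, 8 with the start inside the anchor and 2 as groups. Those stronger in 42MGBA 53-1 (8) numbered 13 by the log2 ratio, 41 with all pairs merged, 5 at the 5′ end and 3 as groups. The 1 weaker pair became 2 with an intercept, 3 by the log2 ratio, 16 with all pairs merged, 2 with absent pairs left out, 2 centred on the chromosome and 3 within 10 kb. The H4 median over members was 0.18 as a median of gene medians.

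Listed pairs with the start inside the anchor numbered 484 in H4 and 449 in H4 88-1, and 386 in 42MGBA against 470 in 42MGBA 53-1. Within 10 kb they were 1305 in H4 and 1154 in H4 88-1. At the 5′ end of the gene record they were 473 in H4 88-1, 338 in 42MGBA and 398 in 42MGBA 53-1, and at the canonical start 407 in 42MGBA and 456 in 42MGBA 53-1. Among the 100000 strongest pairs of the line they were 291, 253, 123 and 168. Of the gene medians, that of BMP6 in the H4 system reversed to -0.0056 less the median of pairs of like size, 20 others moved by 0.1 or more and 115 moved less. Of these, 4 and 8 differed in sign from a median that was itself within 0.1 of 0.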
